A study of Mus musculus with 6 samples.

Results

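The genes described here serve protein folding in the endoplasmic reticulum (ER) and the unfolded protein response (UPR). The 34 were chosen by symbol, from a list of known UPR and ER folding genes, among 18193 genes with a probe set on the array. They fall by role into 15 chaperones and folding factors, 6 genes of ER-associated degradation (ERAD), 8 genes of the PERK-ATF4 arm, 3 genes of the IRE1 and ATF6 sensor branches and 2 parts of the protein translocon. Each gene was read from the probe set with the highest mean over the 6 arrays, and 33 of the 34 exceeded the level required for testing (all but Chac1).

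Affymetrix mouse arrays were used to profile regulatory T cells (Treg) of the mesenteric lymph node, taken at an age of 4 to 6 weeks. Induced Treg (iTreg, 3 arrays) were Foxp3-positive, Nrp-negative CD4 T cells of TBmc mice given ovalbumin by mouth at 1% for 1 week. TBmc mice are BALB/c animals that lack the recombinase and carry a single ovalbumin-specific T cell receptor and a single B cell receptor. Total Treg (WT Treg, 3 arrays) were Foxp3-positive CD4 cells of wild-type BALB/c mice, and a Foxp3 GFP reporter is named for all of them and for 2 of the iTreg samples. Receptor, feeding, genetic background and the Nrp gate differ together between the groups and cannot be told apart. The labels of 2 arrays disagree with their titles: WT Treg replicate 1 carries the Nrp-negative cell label, and the strain label of iTreg replicate 1 names neither TBmc nor the reporter. Whether replicates came from separate mice is not in the labels, so the p-values rest on array-to-array spread that could be technical.

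In the UPR, unfolded protein in the ER lumen frees 3 membrane sensors from the chaperone BiP. IRE1 splices the mRNA of the transcription factor XBP1, ATF6 is cut by Golgi proteases to release a transcription factor, and PERK phosphorylates eIF2α, which lowers translation in general while raising that of ATF4. XBP1 and ATF6 act on chaperone and ERAD genes, and ATF4 on genes of amino acid supply, redox balance and cell death. In lymphocytes the response is best known from plasma cells, and in T cells it accompanies activation and cytokine secretion. The array measures total mRNA, so Xbp1 splicing and eIF2α phosphorylation are outside what these values show.

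Promoter motifs, read from sequence and not from the array values, are shown first because they are elements at which UPR factors are known to act. RefSeq windows of GRCm38.p6, from 250 bases before to 50 after the annotated start, existed for 29 of the 34 members. The ER stress response element (ERSE), which ATF6 binds together with the CCAAT factor NF-Y, was searched on both strands as CCAAT, then 9 bases, then CCACG. It occurred in 7 of 13 chaperone promoters (53.8%), in 1 of 5 ERAD promoters and in 0 of 7 promoters of the PERK-ATF4 arm. Of all 27025 genes with a window 37 held it (0.137%), and of 8887 tested genes with a window 14 did (0.158%), 8 of which are members. Motifs and members were both chosen as known parts of the UPR. A high share of matches among members was thus likely beforehand and is no result of these data. The sites are given on the strand that reads CCAAT first, with 10 flanking bases on each side, the letters of the motif in capitals and positions counted from the start site.

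Hspa5, chr2:34772015-34772053, motif at -65 to -47: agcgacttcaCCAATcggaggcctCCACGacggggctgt
Hsp90b1, chr10:86705628-86705666, motif at -212 to -194: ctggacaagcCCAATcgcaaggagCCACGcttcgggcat
Hsp90b1, chr10:86705523-86705561, motif at -107 to -89: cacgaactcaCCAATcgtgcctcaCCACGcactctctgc
Dnajc3, chr14:118937817-118937855, motif at -105 to -87: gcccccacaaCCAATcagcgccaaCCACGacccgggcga
Creld2, chr15:88819510-88819548, motif at -126 to -108: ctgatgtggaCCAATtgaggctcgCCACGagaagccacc
Pdia6, chr12:17266481-17266519, motif at -98 to -80: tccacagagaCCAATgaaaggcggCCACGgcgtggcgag
Calr, chr8:84847065-84847103, motif at -162 to -144: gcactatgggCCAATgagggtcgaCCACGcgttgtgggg
Canx, chr11:50325790-50325828, motif at -145 to -127: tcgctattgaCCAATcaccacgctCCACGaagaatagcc
Syvn1, chr19:6046522-6046560, motif at -44 to -26: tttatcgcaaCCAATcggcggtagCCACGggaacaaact

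The C/EBP-ATF composite element, a binding site of ATF4, was searched as TGATGNAAN on both strands. It occurred in 3 of 7 promoters of the arm (42.9%), in 1 of 5 ERAD promoters and in 0 of 13 chaperone promoters, against 1215 of 27025 genes (4.5%) and 2.68% of the tested genes. These sites are shown on the strand of the motif, again with 10 flanking bases and the motif in capitals.

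Asns, chr6:7693214-7693242, motif at -23 to -15: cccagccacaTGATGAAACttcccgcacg
Chac1, chr2:119351038-119351066, motif at -194 to -186: ctggcaggagTGATGCAACggcagggaag
Trib3, chr2:152344029-152344057, motif at 14 to 22 after the start: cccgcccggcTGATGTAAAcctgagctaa
Herpud1, chr8:94386306-94386334, motif at -113 to -105: gggtgcgggcTGATGCAACccgccgtggt

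The ERSE-II form (ATTGG, then 1 base, then CCACG), which shares its last 5 letters with ERSE, was found in Herpud1 at -52 to -42 and in Dnajb11 at 8 to 18, against 12 of all 27025 genes (0.0444%). The XBP1 element TGACGTGG, whose end is the reverse complement of the CCACG part of ERSE, was found in 0 of the 29 members and in 193 of all genes (0.714%). Of the members with a window, 5 of 13 chaperones and 4 of 7 genes of the PERK-ATF4 arm matched none of these motifs. Neither did the ERAD genes Edem1, Sel1l and Derl2, nor the sensors and translocon members. The difference between roles was not tested. A match describes letters and is not a measured binding site.

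**Figure D1:**
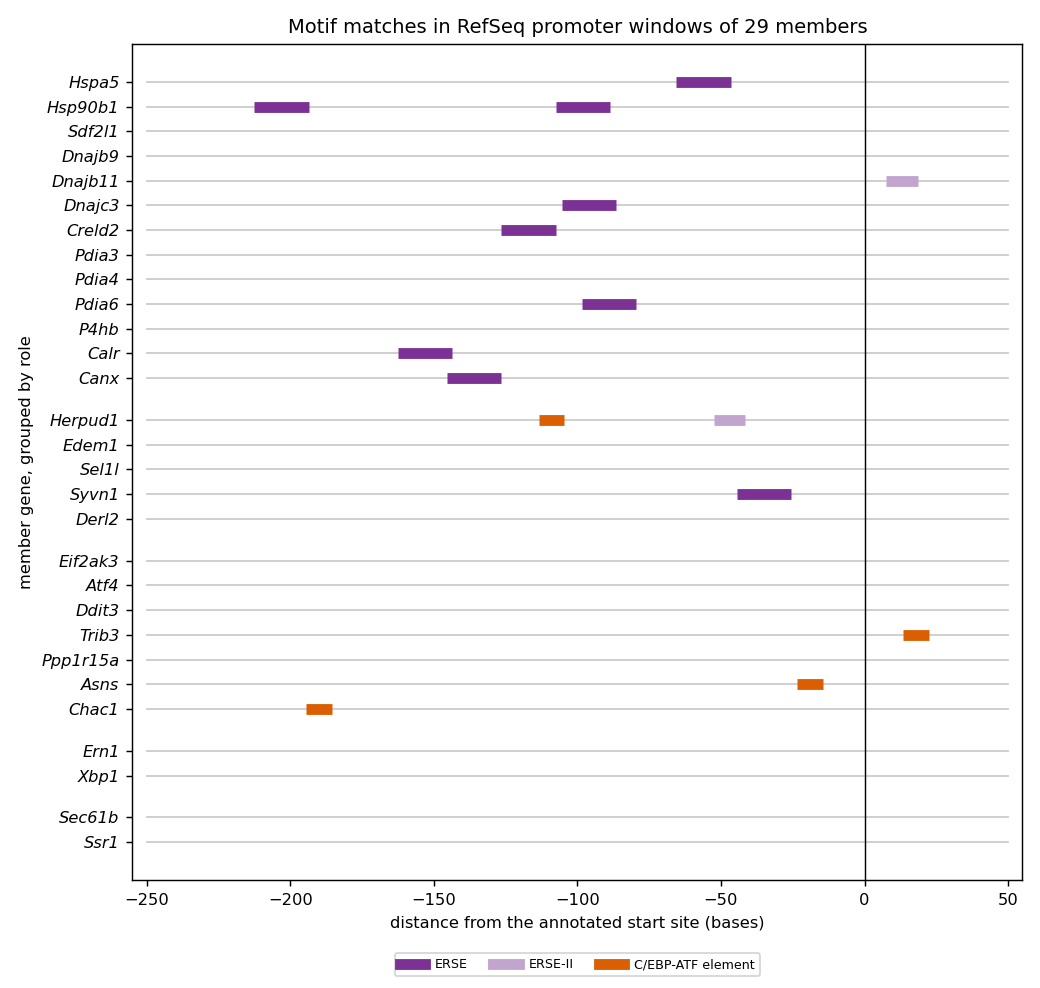
Motif matches in the promoter windows of 29 members, drawn by distance in bases from the annotated start site (x axis), with a line for each gene grouped by role. Purple bars (ERSE) lie in 7 of 13 chaperone promoters and orange bars (C/EBP-ATF element) in 3 of 7 promoters of the PERK-ATF4 arm.

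The comparison asks whether these genes differ between Treg induced by oral antigen and the total Treg pool. With limma, 0 of the 33 tested members passed at an adjusted p of 0.05, where 3 of 10916 genes did (0.0275%, all lower in iTreg). At an unadjusted p under 0.05, 5 members were lower in iTreg (Pdia4, Ssr1, Manf, Trib3 and Hsp90b1) and 0 were higher, beside 4.58% of all tested genes lower and 3% higher. The 3 iTreg signals lay below all 3 WT signals in 4 of the 33 tested members, and above them in 3, beside 7.78% and 5.1% of all tested genes. Over all 34 members the median log2 difference was -0.15, with 21 negative and 13 positive (20 and 13 over the 33 tested, median -0.12), against -0.03 for all tested genes, of which 52.8% were negative. These counts are small, and the values below describe single genes. Without both arrays whose labels disagree with their titles, an unadjusted p under 0.05 was left for 1 member lower and 1 higher in iTreg. The differences were then -0.93 for Pdia4, -0.94 for Ssr1, -0.85 for Manf, -1.86 for Trib3 and -0.50 for Hsp90b1. Differences are iTreg minus WT Treg of log2(signal + 16), which understates the change of dim genes. In bulk RNA of sorted cells, fewer cells of a type and less RNA per cell cannot be told apart.

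Among the chaperones and folding factors 10 of 15 had negative and 5 positive differences, with a median of -0.28 and a range from -1.09 to 0.31. No member of this role passed the test. Pdia4 and Manf lay at the negative end of the range and Calr at the positive end. The median was -0.46 without WT Treg replicate 2, -0.18 without iTreg replicate 3, -0.09 without WT Treg replicate 3 and -0.06 without replicate 3 of both groups, with 8 of 15 negative in the last 2 settings. It was -0.07 for the mean of all probe sets of a gene and -0.09 with array weights. WT Treg replicate 3 had the highest signal of the 6 arrays in 7 of the 15 genes (46.7%), against 20.7% of all tested genes.

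Pdia4, a protein disulfide isomerase that forms and rearranges disulfide bonds in the ER lumen, had signals of 175, 342 and 250.3 in iTreg replicates 1, 2 and 3 and of 492, 458 and 710.4 in WT Treg. All 3 iTreg arrays lay below all 3 WT arrays. The means were 256 ± 83.5 (SD, n = 3) and 554 ± 137 (SD, n = 3), differing by -1.09 ± 0.34 (log2, SE, 95% interval -1.83 to -0.35, limma adjusted p = 0.467). Without single arrays the difference ranged from -1.31 to -0.86.

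Manf, a small secreted ER protein that assists BiP and is strongly induced by ER stress, had signals of 601, 769 and 509 in iTreg, against 999, 973 and 1342 in WT Treg. The groups did not overlap here either. Its difference was -0.81 ± 0.28 (log2, SE, 95% interval -1.43 to -0.19, limma adjusted p = 0.538). It ranged from -0.96 to -0.66 without single arrays, and Manf has only this probe set.

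Hsp90b1 encodes GRP94, the HSP90 chaperone of the ER, which folds integrins and Toll-like receptors. Its signals were 1274, 1863 and 1008 in iTreg, against 2733, 1539.7 and 2466 in WT Treg, differing by -0.70 ± 0.32 (log2, SE, limma adjusted p = 0.656). iTreg replicate 2 lay above WT Treg replicate 2. On its other probe set the difference was -0.51, and there the groups did not overlap, with 1289.9, 1679 and 1069 against 1921, 1687 and 2068.

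Hspa5 encodes BiP, the HSP70 chaperone that holds the UPR sensors inactive and is the usual readout of ER stress. Its signals spanned 3503, 2001 and 1092 in iTreg, against 2493, 1812 and 3665 in WT Treg. The spread within iTreg was larger than the difference between the group means, 2199 ± 1217 and 2657 ± 937 (SD, n = 3). The log2 difference was -0.37 (95% interval -1.24 to 0.51), with -0.60 on the other bright probe set, 0.05 without iTreg replicate 3 and 0.31 without replicate 3 of both groups. The sequence of its promoter before the start site is shown, because it holds the ERSE nearest to the start among the chaperones, with CCAAT and CCACG letters of either strand in capitals.

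Hspa5, chr2:34771840-34772089, plus strand: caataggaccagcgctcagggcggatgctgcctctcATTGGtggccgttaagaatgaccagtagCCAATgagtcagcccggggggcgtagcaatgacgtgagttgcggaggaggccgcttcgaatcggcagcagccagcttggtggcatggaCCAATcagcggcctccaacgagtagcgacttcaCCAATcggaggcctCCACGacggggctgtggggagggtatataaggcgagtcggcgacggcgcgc

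Pdia4, the chaperone gene with the largest difference, is shown beside it. These 250 bases hold 3 matches to CCAAT and 0 to CCACG, and so no full ERSE.

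Pdia4, chr6:47813513-47813762, minus strand: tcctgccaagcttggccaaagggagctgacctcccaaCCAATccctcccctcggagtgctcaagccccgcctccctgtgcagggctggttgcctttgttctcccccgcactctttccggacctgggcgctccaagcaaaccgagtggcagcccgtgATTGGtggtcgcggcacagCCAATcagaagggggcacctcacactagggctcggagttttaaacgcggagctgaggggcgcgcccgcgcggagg

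Differences of the 7 chaperone genes with an ERSE ran from -0.70 (Hsp90b1) to 0.31 (Calr). Those of the 6 with a window and no ERSE ran from -1.09 (Pdia4) to 0.20 (P4hb). The ranges overlap, and no further comparison was made.

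The remaining BiP partners were mixed. Sdf2l1, a stress-induced subunit of ER chaperone complexes, had 86.0, 129 and 19.5 in iTreg, against 194, 90.7 and 103 in WT Treg. This is a difference of -0.78 (95% interval -1.94 to 0.38) that was -0.19 without iTreg replicate 3. On that array its signal lay below 28.5, the highest signal of unspiked control probe sets. Dnajb9, a J-domain cofactor of BiP that also restrains IRE1, differed by -0.32 (95% interval -1.13 to 0.49), from -0.72 without iTreg replicate 1 to -0.06 without iTreg replicate 2. Dnajb11, a J-domain cofactor for nascent chains, differed by -0.08 (0.00 after scaling to a common median), and the nucleotide exchange factor Hyou1 by 0.22 (95% interval -0.61 to 1.06). Dnajc3, also called p58IPK, a J-domain cofactor, had 707, 724 and 902 in iTreg, against 584, 631 and 679 in WT Treg. Its groups did not overlap, with a difference of 0.29 (95% interval -0.30 to 0.87), but its 5 probe sets ranged from -0.53 to 0.39. Creld2, a stress-induced disulfide isomerase of the ER, differed by 0.02 (95% interval -0.65 to 0.69).

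Of the other disulfide isomerases, Pdia3, which works with the lectin chaperones, differed by -0.29 (95% interval -0.88 to 0.29), Pdia6 by -0.28 (-1.12 to 0.55) and P4hb by 0.20 (-0.46 to 0.86). Each had overlapping groups. Pdia3 was at -0.46 without WT Treg replicate 2 and -0.12 without WT Treg replicate 3, and Pdia6 at -0.63 and -0.09 without the same arrays. Calr (calreticulin), the soluble lectin chaperone and calcium buffer, had 1525, 950.04 and 1823 in iTreg, against 1139, 1069 and 1130.00 in WT Treg. The spread within iTreg exceeded that in WT Treg, and the difference of 0.31 (95% interval -0.33 to 0.95) had the same sign on all 3 probe sets. Canx (calnexin), its membrane-bound relative, differed by -0.17, and its other probe sets by -0.07 and 0.24.

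**Figure D2:**
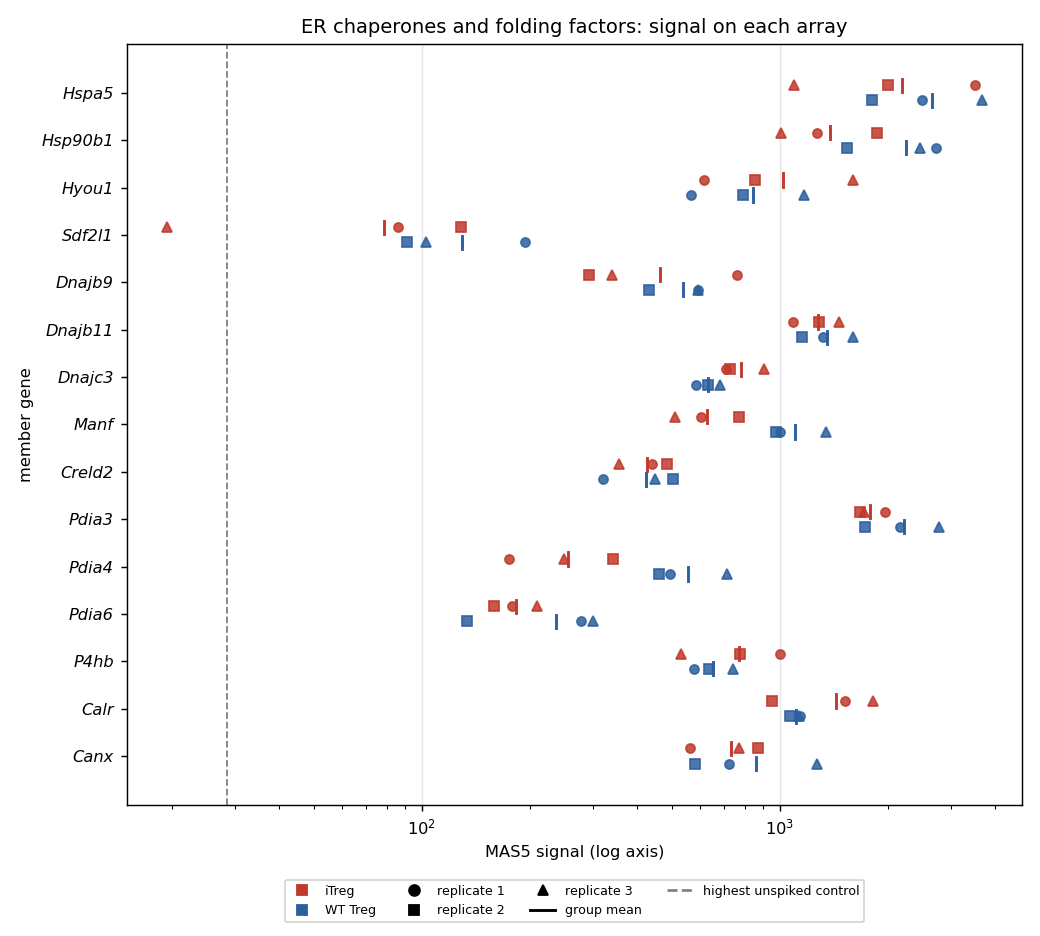
MAS5 signal of the 15 chaperones and folding factors (log x axis) on each array, with iTreg in red, WT Treg in blue, symbols for replicates and a bar at each group mean. Only Pdia4 and Manf had all iTreg points below all WT points and only Dnajc3 all above; the dashed line is the highest unspiked control, 28.5, and levels of different genes are not comparable.

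ERAD genes lay the other way on the probe sets used, with 5 of 6 positive and a median of 0.25, but this direction depended on the probe set. The median was -0.07 for the mean of all probe sets of a gene. It was -0.28 for probe sets with the plain ending _at. In each setting 4 of 6 were negative. For Herpud1 the plain ending replaced an _a_at probe set at 0.25 by another at -0.57. None of the 6 passed the test. The median was 0.14 without iTreg replicate 3 and 0.12 without replicate 3 of both groups.

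Edem1, a lectin that takes misfolded glycoproteins out of the folding cycle, was higher in every iTreg array on both of its probe sets. Its signals were 1157, 1134 and 1164 in iTreg, against 1013, 894 and 857 in WT Treg, differing by 0.32 ± 0.25 (log2, SE, 95% interval -0.23 to 0.87, limma adjusted p = 0.812). The second probe set gave 618, 547 and 757 against 407, 413 and 482, a difference of 0.54. The groups did not overlap on either.

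Syvn1 (HRD1), the ubiquitin ligase of ERAD, differed by 0.44 (95% interval -0.50 to 1.39), with 211, 238 and 99.9 in iTreg against 124, 179.8 and 81.2 in WT Treg, and by -0.23 on its other probe set. Its adaptor Sel1l differed by 0.24, with its 5 probe sets from -0.88 to 0.38. Herpud1, a stress-induced scaffold of the HRD1 complex, had 212, 168 and 195 against 133, 134 and 219, a difference of 0.25. Its other probe set went the opposite way without overlap, at 141, 155 and 91.7 against 163, 239 and 193 (-0.57). Derl1 and Derl2, which form the channel for retrotranslocation, differed by 0.08 and -0.32 with overlapping groups. Leaving out single arrays moved Syvn1 from 0.19 (without WT Treg replicate 3) to 0.79 (without iTreg replicate 3), and Sel1l from 0.04 (without iTreg replicate 3) to 0.42 (without iTreg replicate 2).

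In the PERK-ATF4 arm the sensor, the transcription factor and its targets did not share a direction. Of the 7 tested genes 4 had negative and 3 positive differences, with a median of -0.04 and a range from -1.27 to 1.05. None passed. With Chac1, whose signals lay at the level of unspiked controls, the median of the 8 was -0.25, a value that depends on a gene without a measurable level. That median was -0.13 without iTreg replicate 3, -0.13 without both arrays whose labels disagree with their titles and -0.09 with a pseudocount of 64. It was -0.16 after scaling to a common median. For the 7 genes with a probe set of plain ending _at it was -0.46. These 7 include Chac1 and leave out Trib3, so that value also depends on Chac1.

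Eif2ak3, which encodes PERK, had 134, 131 and 136 in iTreg, against 125, 97.4 and 94.4 in WT Treg. The groups did not overlap and the iTreg values lay close together, with a log2 difference of 0.31 (95% interval -0.48 to 1.09) and 0.21 on a second probe set. Its remaining, dim probe set gave -1.16. Atf4, the translationally controlled transcription factor of this arm, had 898, 808 and 946 against 869, 925 and 770.1. Its difference was 0.05 (95% interval -0.51 to 0.61), and -0.49 on its other bright probe set.

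The downstream genes split. Trib3, a pseudokinase induced by ATF4 and CHOP that inhibits AKT, had 90.5, 19.8 and 10.9 in iTreg, against 97.7, 125 and 74.0 in WT Treg. iTreg replicate 1 lay within the WT range, and the other iTreg arrays lay below 28.5, the highest signal of control probe sets without a spiked target. The difference was -1.27 ± 0.51 (log2, SE, limma adjusted p = 0.613), from -1.86 to -0.87 without single arrays. The other Trib3 probe set gave 0.15, with signals below 28.5 on all 6 arrays. Asns, the asparagine synthetase that ATF4 induces, had 22.7, 6.15 and 21.4 against 35.8, 37.9 and 23.4, with the iTreg signals and WT Treg replicate 3 all below 28.5, so the fitted difference of -0.59 and the lack of overlap rest on values not above background. The same holds for iTreg on its second probe set. Chac1, a glutathione-degrading enzyme downstream of ATF4, was below 28.5 on all 6 arrays, at 7.59, 1.85 and 0.506 against 11.8, 8.66 and 11.4, and gets no test or fold. Ddit3 (CHOP), the factor tied to stress-induced death, differed by -0.46 (95% interval -1.36 to 0.45), with 126, 243 and 109 against 301, 221 and 143, and by -0.22 without WT Treg replicate 1 and -0.78 without iTreg replicate 2.

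The remaining genes of this arm encode phosphatase subunits that reverse eIF2α phosphorylation. Ppp1r15a (GADD34), the inducible subunit, had 350.01, 239 and 216 in iTreg, against 375, 69.1 and 58.0 in WT Treg. WT Treg replicate 1 lay above all iTreg arrays, and the other WT arrays below all of them. The difference was 1.05 (95% interval -0.19 to 2.28, limma adjusted p = 0.717), and 1.81 without WT Treg replicate 1, with an adjusted p of 0.282. Ppp1r15b (CReP), the constitutive subunit, had 956, 1147 and 890.1 against 826, 1033 and 1237 and differed by -0.04 (0.05 after scaling to a common median). Of 14 immediate early and stress genes (13 tested) 10 were positive. Their median log2(signal + 16) was 10.23, 9.32 and 7.41 in iTreg, against 9.72, 7.24 and 8.03 in WT Treg, high in the same WT replicate 1, and their part in the Ppp1r15a values was not tested.

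**Figure D3:**
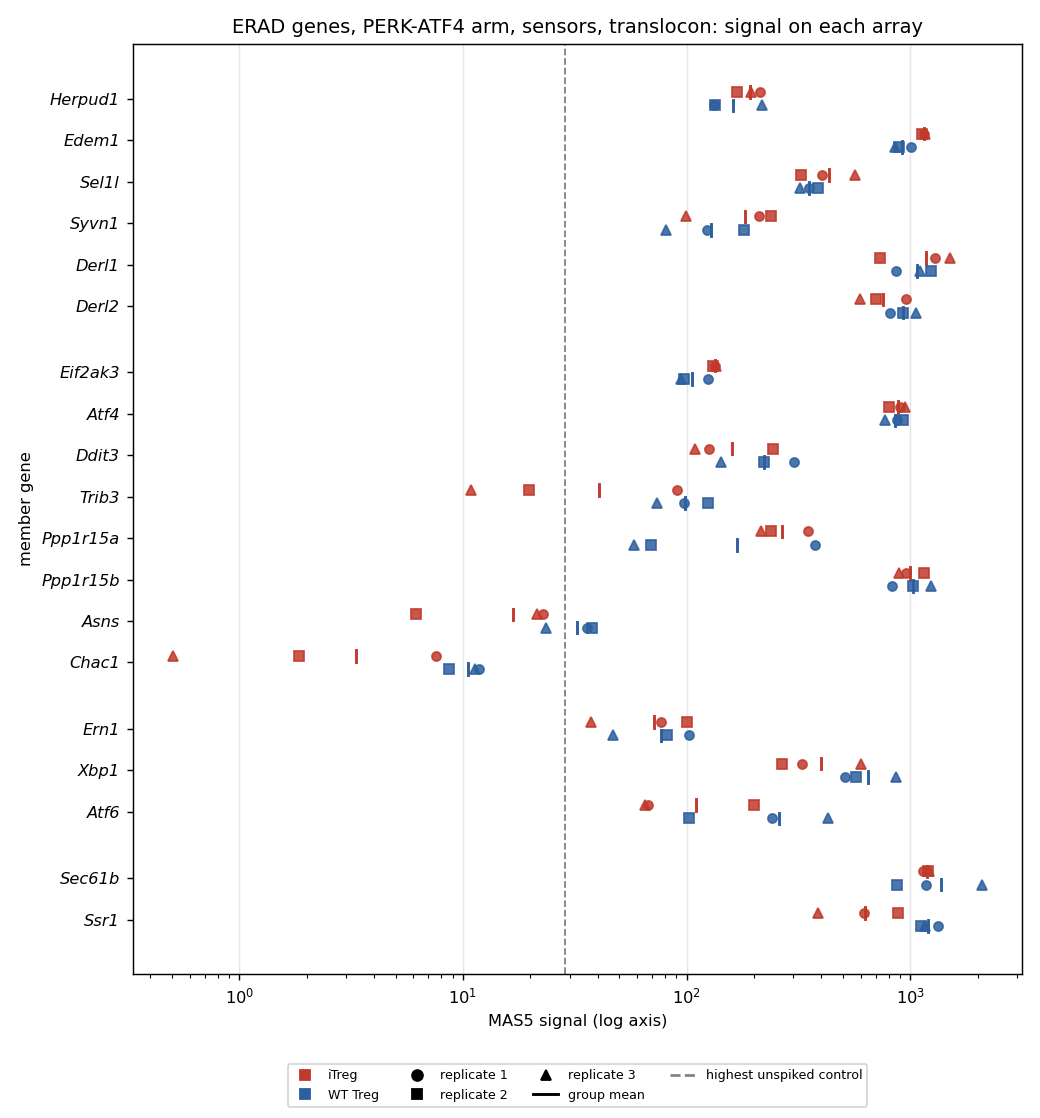
MAS5 signal (log x axis) of the ERAD genes, the PERK-ATF4 arm, the sensors and the translocon genes on each array, in the order of the text, with iTreg in red, WT Treg in blue and a bar at each group mean. Edem1, Eif2ak3, Asns, Chac1 and Ssr1 are the genes without overlap; all Chac1 points and the iTreg points of Asns lie left of the dashed line at 28.5.

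In the sensor branches all 3 genes had negative differences on the probe sets used, but only Xbp1 was negative on every probe set above the filter level. Xbp1, the transcription factor that IRE1 activates by splicing and that plasma cells need for secretion, had 328, 267 and 604 in iTreg, against 511, 571 and 863 in WT Treg. Only iTreg replicate 3 reached into the WT range. The difference was -0.72 ± 0.36 (log2, SE, 95% interval -1.50 to 0.06, limma adjusted p = 0.696).

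The 4 probe sets of Xbp1 lay close together. All 4 were negative, from -0.83 to -0.72, and in 2 of them no iTreg array reached the WT range. These gave 147, 240.2 and 137 against 305, 269 and 379.7, and 111, 109.8 and 167 against 183, 206 and 322. The probe sets read the same RNA, so they are no replicates of each other. Over all members, 45 of 75 probe sets above the filter level were negative, 10 lay lower without overlap and 5 higher. Of all 21206 such probe sets, 11422 were negative, 1593 lay lower without overlap and 950 higher.

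Atf6, the cleaved membrane sensor, had 67.0, 199.6 and 65.0 in iTreg, against 241, 103 and 431 in WT Treg, a difference of -1.08 (95% interval -2.25 to 0.10). Its groups overlapped, and both other probe sets were dim and gave 0.29. Ern1, which encodes IRE1α, had 77.1, 100.2 and 37.6 against 103, 81.9 and 47.1. The difference of -0.11 (95% interval -1.07 to 0.84) lay within the spread of either group, and its other probe sets above the filter level gave 0.64 and 0.26.

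Of the translocon members, Ssr1, the alpha subunit of the translocon-associated complex that helps signal sequences enter the ER, had 621, 883 and 387 in iTreg, against 1334, 1118 and 1166 in WT Treg. The groups did not overlap, with means of 630.3 ± 248 and 1206 ± 113 (SD, n = 3). The difference was -0.99 ± 0.32 (log2, SE, 95% interval -1.69 to -0.29, limma adjusted p = 0.50). Its other probe sets gave -0.57, -0.47 and 0.28. Sec61b, a subunit of the channel itself, had 1144, 1199.8 and 1209.5 against 1177, 869 and 2094, a difference of -0.12 set against a wide WT range.

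**Figure D4:**
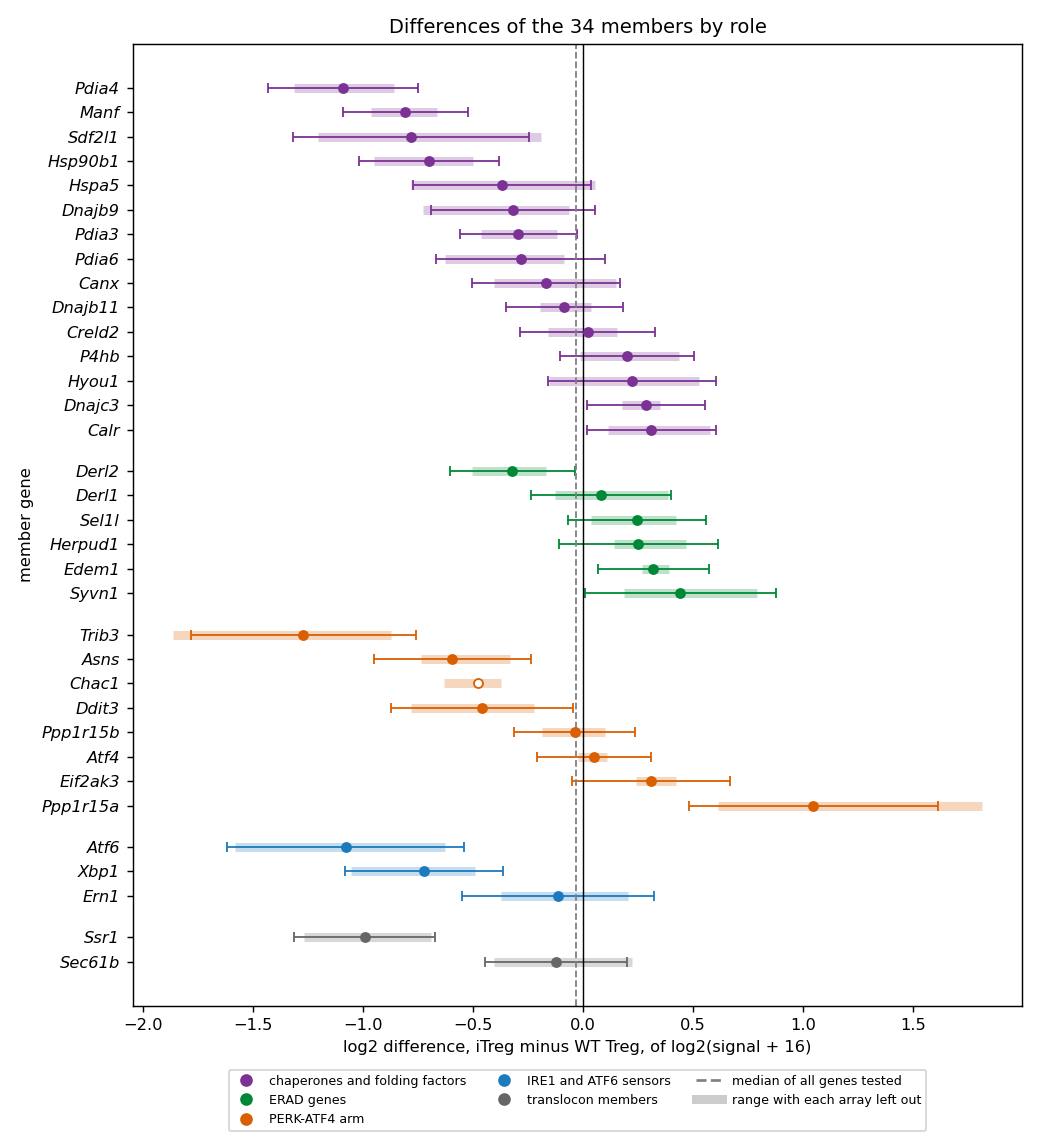
Log2 differences (x axis, iTreg minus WT Treg of log2(signal + 16)) of the 34 members by role, with 1 standard error as whiskers and, as shaded bars, the range with each array left out. Pdia4 (-1.09), Ssr1 (-0.99) and Manf (-0.81) stay below 0 throughout, while the shaded bars of Hspa5, Creld2 and Atf4 cross 0; Chac1 (open) was not tested.

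**Figure D5:**
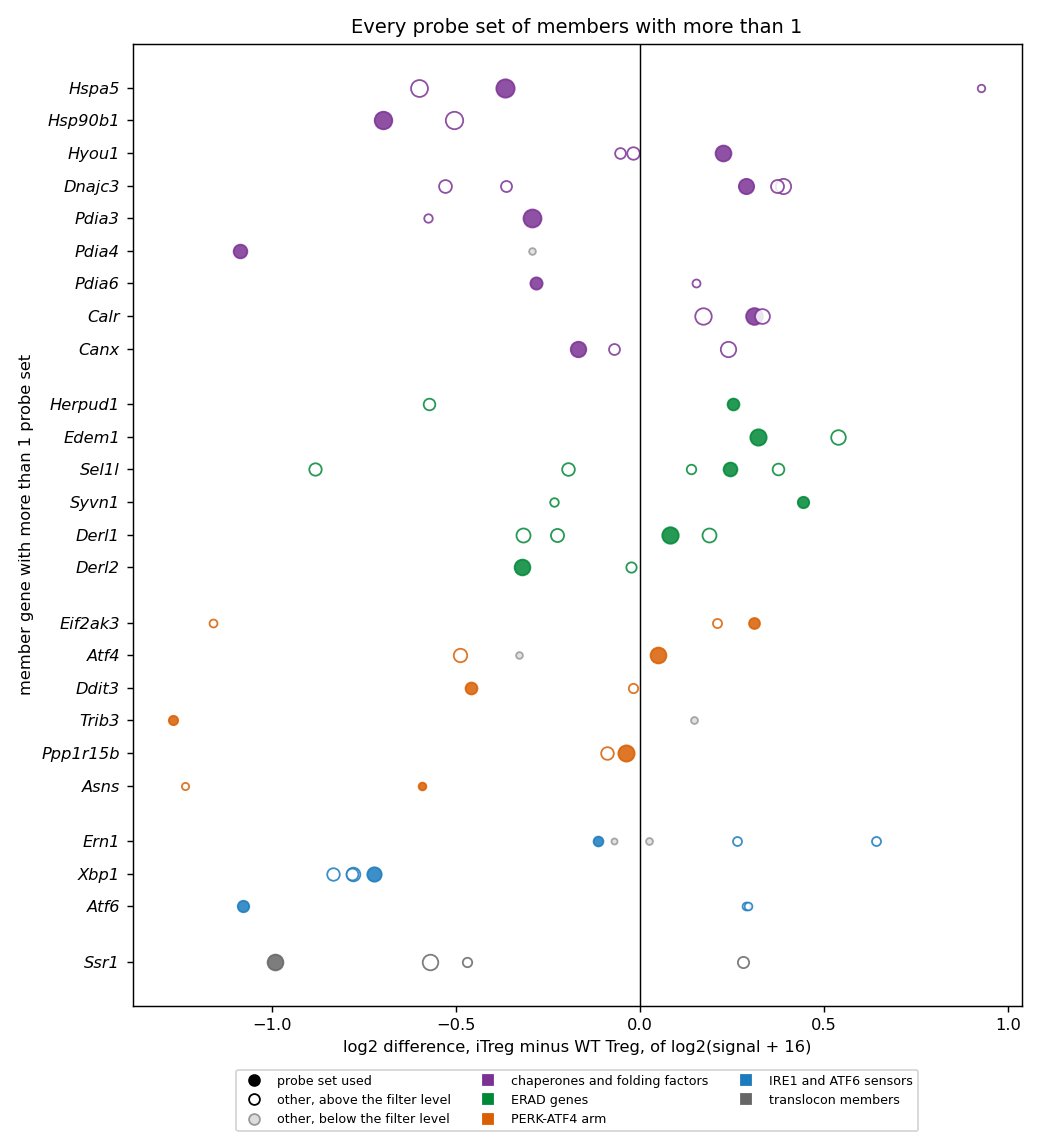
Log2 differences (x axis) of every probe set of the 25 members with more than 1, filled where used, open for others above the filter level, grey below it, and larger for brighter probe sets. The 4 points of Xbp1 lie together between -0.83 and -0.72, while those of Sel1l run from -0.88 to 0.38.

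Neighbouring genes of the pathway, from lists of other genes, likewise held 0 members past the adjusted threshold with limma. Of 21 other ER chaperones and folding factors on the array (17 tested), 12 were negative. The median of the 21 was -0.19, the value of Fkbp11, which lay below the filter level. At an unadjusted limma p under 0.05, 2 were lower: the BiP exchange factor Sil1, with 155, 79.3 and 46.0 against 159.7, 318 and 314 (-1.42), and Cnpy2 (-0.70). Of 20 other ERAD genes (19 tested) 7 were negative (median 0.13), with Erlec1, an ER lectin, at -0.62 and Herpud2 at 0.57. The other translocon, signal peptidase and oligosaccharyltransferase genes were near balance, with 11 of 20 negative (median -0.06) and Rpn2 at -0.70 and Ddost at -0.65. Of 17 COPII and KDEL receptor genes 9 were negative (median -0.06), with the cargo receptor Lman1 at -1.04 and Sec24c at 0.50. Of 9 other sensors, proteases and eIF2 kinases (8 tested) 5 were negative (median -0.10), with the ATF6-cleaving proteases Mbtps1 at -0.64 and Mbtps2 at -0.39.

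Other ATF4 targets were mixed. Of 22 on the array 10 were negative and 12 positive, with a median of 0.03. Of the 17 tested, 0 had an unadjusted limma p under 0.05. Stc2 differed by -1.09 and Cebpb, a transcription factor, by 0.96, each with overlapping groups. The aminoacyl-tRNA synthetase genes, many of them ATF4 targets, had 9 of 12 negative differences and a median of -0.35, led by Gars (-0.62) and Yars (-0.63), and again none under 0.05.

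The labelled cell type fitted its markers in part. Signals of 8 measured T cell and Treg markers summed to between 16773 and 20098 in iTreg and between 19908 and 26344 in WT Treg, and Il2ra, the IL-2 receptor alpha chain, differed by -1.35. Foxp3 itself was read by a dim probe set, at 31.7, 54.6 and 15.6 against 26.2, 45.7 and 9.16. Its signal lay below 28.5 on iTreg replicate 3 and on WT Treg replicates 1 and 3. Plasma cells, in which ER folding genes are abundant, were checked by a list of markers. Of those above the filter level, Irf4 (-1.51) and Prdm1 (-0.35) were negative and Ighm (0.97) was positive. The summed signal of the list was 930.5 to 1470.4 in iTreg and 769.5 to 1299.9 in WT Treg, most of it from Ighm and Irf4. Irf4 is also a transcription factor of effector Treg, so this sum does not measure plasma cells alone. In these sums Jchain was counted again under its older symbol Igj. Sdc1, Tnfrsf17, Jchain and Mzb1 were below 28.5 on every array. Summed B cell markers were 96.0 to 136 against 99.8 to 138, myeloid and dendritic markers 105 to 201 against 70.5 to 109, CD8 T and NK markers 112 to 253 against 86.4 to 126, and erythroid and stromal markers 454 to 825 against 402 to 472. All of these ranges overlapped, and the last 3 lists reached their highest sums in iTreg. Most of the erythroid and stromal sum came from Pecam1, at 598, 345 and 735 in iTreg against 371, 385 and 341 in WT Treg. Single markers were higher in every iTreg array: the myeloid gene Lyz2, at 44.6, 44.2 and 23.1 against 21.9, 9.01 and 8.79, and Cd8b1, a CD8 chain, at 69.6, 132 and 70.1 against 63.3, 33.7 and 33.99. For Lyz2, iTreg replicate 3 and every WT array lay below 28.5. Neither Lyz2 nor Cd8b1 passed the adjusted threshold. Their part in the member values was not tested.

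Every array had a 2% trimmed mean signal of 150.0, and medians ranged from 24.3 to 27.5 in iTreg and from 21.1 to 32.3 in WT Treg. For Gapdh, the 3′ over 5′ signal ratio, a measure of RNA integrity, was on the log2 scale 2.48 to 3.38 in iTreg and 2.28 to 2.53 in WT Treg. On iTreg replicates 1 (3.06) and 3 (3.38) the Gapdh ratio lay above that of every WT Treg array. For actin the ratio was -0.0004 to 0.38 in iTreg and 0.14 to 0.32 in WT Treg. The part of RNA integrity in the member values was not tested. The number of arrays limits the precision.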

How the data were processed

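Total RNA of 6 samples was measured on Affymetrix arrays. The deposited values are MAS5 signal intensity per probe set on a linear scale, per the submitters' processing notes, with no version given in the sources used here. Equal trimmed means show that the arrays had been scaled. Of 45101 probe sets, 34945 had 1 gene symbol in the platform annotation (updated by gene ID to RefSeq names), 932 several and 9160 none; the last 2 kinds and 64 controls were not used. Signals were transformed as log2(signal + 16). Per gene the brightest probe set by its 6-array mean was kept, and the 10916 of 18193 genes at or above the 40th percentile (4.99) were tested with limma 3.58.1 in R 4.3.3 (lmFit, eBayes with an intensity trend), two-sided, with Benjamini-Hochberg adjustment over all of them. Scripts were tested on simulated data.

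All 34 members are described, and up to 2 genes of each other list with the smallest p. Members, roles and lists were chosen with earlier results of these data known, so no list was tested and none supports a direction. Alternatives were pseudocounts of 1 and 64, quantile and median scaling, no filter and the 60th percentile, no trend, robust variances and array weights. Others were averaging a gene's probe sets, using only those with the plain ending _at (without _a_at, _s_at or _x_at), the replicate number as a block, and arrays left out. The level of 28.5 is the highest signal among 27 unspiked bacterial controls. Promoter windows are RefSeq's for GRCm38.p6; the expression files name no build.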

Additional observations from a re-analysis of the deposited data

How the results depend on the processing

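No member passed an adjusted p of 0.05 under any alternative run, and the smallest over all of them was 0.277 (Ssr1, without iTreg replicate 2). The number of genes called in the whole comparison was 3 as reported, 0 with a pseudocount of 1, 0 with no filter, 8 with median scaling, 14 with array weights, 0 without both arrays with label doubts, 0 without replicate 3 of both groups, and 0 to 1 without single arrays. Whether the replicate numbers pair the samples was not settled. Deviations of same-numbered arrays from their group means correlated at 0.17, 0.05 and 0.13 over genes, and those of different-numbered arrays at -0.17 to 0.053. iTreg replicate 2 was no closer to its own number than to WT Treg replicate 1. With the replicate block 3 genes were called, and 1014 genes had an unadjusted limma p under 0.05, against 828 in the main run. At that level the members counted 6 lower and 1 higher. The ERAD median was -0.0671 with the mean of probe sets and -0.28 with probe sets of plain ending _at. Of 675 member values under the alternatives 625 kept their direction and 48 changed sign, in 15 genes. The other 2, of the untested Chac1, moved by more than the replicate spread. The cause was not tested. Settings of filter, trend, robust variances and replicate block leave the differences as in the main run. Their values could not change sign, so the 625 include values fixed in advance. Changed signs were, with the mean of probe sets, Herpud1 -0.16, Sel1l -0.0646, Derl1 -0.0695, Eif2ak3 -0.21, Atf4 -0.26 and Ern1 0.15. With probe sets of plain ending _at they were Hyou1 -0.0185, Herpud1 -0.57, Syvn1 -0.23, Derl1 -0.32 and Atf4 -0.49. With median scaling they were Dnajb11 0.0049 and Ppp1r15b 0.0512, and with array weights Ppp1r15b 0.0408 and Sec61b 0.0024. Without both arrays with label doubts they were Dnajb11 0.0131, Creld2 -0.19, P4hb -0.0941, Derl1 -0.16 and Ern1 0.0051. Without replicate 3 of both groups they were Hspa5 0.31, Canx 0.11, Sel1l -0.0286, Derl1 -0.0909, Atf4 -0.0723, Ppp1r15b 0.18 and Sec61b 0.21. Without single arrays the range crossed 0 for Hspa5 (-0.78 to 0.0544), Hyou1 (-0.15 to 0.53), Dnajb11 (-0.19 to 0.0387), Creld2 (-0.16 to 0.15), P4hb (-0.0113 to 0.44), Canx (-0.41 to 0.15), Derl1 (-0.12 to 0.39), Atf4 (-0.0227 to 0.11), Ppp1r15b (-0.19 to 0.10), Ern1 (-0.37 to 0.21) and Sec61b (-0.40 to 0.22). Signals near or below 28.5 (Chac1, Asns, Trib3 in iTreg, and Sdf2l1 in iTreg replicate 3) limit the size of those differences.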

Other observations

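Irf4, a transcription factor of effector Treg and of plasma cells, was read as a plasma cell marker and lay lower in every iTreg array, at 135, 156 and 145 against 275, 365 and 849 in WT Treg, differing by -1.51 (log2, limma adjusted p = 0.376). Ier2, an immediate early gene, lay lower in every iTreg array as well (-0.99, limma adjusted p = 0.598), while the cytosolic heat shock gene Hspa1b differed by 2.47 with signals of 961, 1875 and 95.0008 against 186, 15.3 and 175. Of 9 proliferation genes on the array (8 tested) 7 were negative, with a median of -0.10. Neither Irf4, Ier2 nor Hspa1b passed the adjusted threshold.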
